A study of Homo sapiens with 27 samples.

Results

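The comparison asks what a short hairpin RNA against STUB1 (shSTUB1) changed in the transcriptome of cells that carried the ARID1A missense mutant V2084D. It takes 6 of the 27 RNA sequencing samples of the series. The knockdown cells are labelled Huh7, a human line from a hepatocellular carcinoma, had their own ARID1A gene knocked out, carried Flag-tagged V2084D ARID1A from a lentivirus, and had STUB1 knocked down (3 libraries, called shSTUB1 below). They were set against the same knockout line with V2084D ARID1A and no knockdown (3 libraries, V2084D). Another group of 3 libraries, knockout cells with wild-type Flag-tagged ARID1A (WT), shares the fit and gives a level to read the values against. All 3 groups thus share the ARID1A knockout and a lentiviral transgene. The labels name no control hairpin for the V2084D group and give neither the hairpin sequence nor whether the lines were clones or pools. They also do not say that replicates came from separate cultures, so p-values measure the spread between these samples, which may be technical. Genes were kept with at least 10 counts in at least 3 of the 6 libraries, which left 21620 of 67130 genes. Of these, 66 passed through the shSTUB1 libraries alone and 116 through the V2084D libraries alone, with 16 and 33 of them called.

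STUB1, also named CHIP, is a ubiquitin ligase that binds HSP70 and HSP90 through a tetratricopeptide domain and marks their unfolded clients for degradation by the proteasome. ARID1A is a large DNA-binding subunit of the BAF (SWI/SNF) complex, which moves nucleosomes at promoters and enhancers. HSF1, the factor that switches on heat shock genes, is held back by the same chaperones, so chaperone genes are a usual readout of protein folding stress.

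Library totals ran from 59124374 to 79915177 counts in the 9 libraries. Levels are CPM, counts scaled by TMM to the depth of each library. Differences are on the log2 scale, shSTUB1 minus V2084D unless stated, each with its edgeR standard error (SE), and a gene was called at an adjusted p below 0.05. One library stood apart: shSTUB1 replicate 2 had a between-library variance of 105 times the counting variance against replicate 1 and 140 times against replicate 3, against 20.6 between replicates 1 and 3 and 15.2 to 33.5 among the V2084D libraries. Genes for ribosomal, spliceosomal and other small structured RNAs took 2.11% of its counts and 0.014 to 0.0227% of the counts of the other 8 libraries. The 5S ribosomal RNA gene RNA5S9 had 14620 counts in it, 4 counts each in shSTUB1 replicates 1 and 3, and 1, 31 and 2 counts in V2084D replicates 1, 2 and 3. RN7SL1, the RNA of the signal recognition particle, had 43670 counts in it and 1546 to 2558 in the other 5 libraries compared. Of 88 such genes tested 52 were called higher and 1 lower. Leaving the library out gave 4538 called genes in place of 4914, and among the lists described next 17 hypoxia targets, 13 glycolysis, 22 immediate early and 10 heat shock genes were then lower, with 20 ribosome biogenesis genes and 11 mitochondrial mRNAs higher.

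The liver label was checked against marker genes. Of 35 hepatocyte and liver cancer markers 7 reached 10 CPM in any of the 6 libraries, not always in all (APOE, GPC3, FOXA1, FOXA3, CEBPA, CPS1 and ASGR1). APOH, NR1H4, NR1I2 and RBP4 had no count in any of them. ALB, which encodes serum albumin, was at 0.799, 1.38 and 0.568 CPM in shSTUB1 and at 0.600, 0.830 and 1.06 CPM in V2084D. By contrast 13 of 18 genes that mark the 293 embryonic kidney line reached 10 CPM by the same rule. The markers thus go against the liver label, and the cells are called here by their labels alone. The markers summed to 139 to 156 CPM (liver) and 405 to 459 CPM (293 line) in shSTUB1, and to 154 to 175 CPM and 471 to 519 CPM in V2084D. Leukocyte and endothelial markers had no member at 10 CPM (8 and 6 genes), with sums of at most 8.12 CPM in shSTUB1 and 5.37 CPM in V2084D. Of 10 fibroblast markers 2 reached it, COL1A1 and COL3A1. In bulk RNA a lower level per cell and fewer expressing cells cannot be told apart.

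The knockdown was seen in every shSTUB1 library. STUB1 (ENSG00000103266, GRCh38 chromosome 16, 680224 to 682870, plus strand) was at 70.03, 83.9 and 67.1 CPM in shSTUB1, 251, 247 and 296 CPM in V2084D and 231, 215 and 244 CPM in WT (replicates 1, 2 and 3 in each). It fell by 1.84 on the log2 scale (SE 0.10, adjusted p = 6.33e-06), or 3.59-fold, and no library of the groups overlapped. ARID1A (ENSG00000117713, GRCh38 chromosome 1, 26693236 to 26782110, plus strand) was uneven in shSTUB1, at 290.01, 189 and 350.3 CPM, against 268, 270.1 and 215 CPM in V2084D and 344, 368 and 402 CPM in WT. Of the shSTUB1 libraries, replicate 2 lay below the V2084D range and replicates 1 and 3 above it, and the difference was 0.14 (SE 0.18, adjusted p = 0.653). Without shSTUB1 replicate 2 it was 0.35 (adjusted p = 0.0496), and without shSTUB1 replicate 3 it was -0.068. Spearman correlation with transcript length was -0.252 in shSTUB1 replicate 2 and -0.261 in V2084D replicate 3, each the lowest in ARID1A of its group. This correlation was 0.051 and 0.233 in shSTUB1 replicates 1 and 3, and 0.146 and 0.138 in V2084D replicates 1 and 2. In WT replicates 1, 2 and 3 it was -0.037, 0.098 and -0.085, and replicate 3, the lowest, had the highest ARID1A of WT. The fit without shSTUB1 replicate 2 still held V2084D replicate 3. A link of transcript length to the ARID1A levels was not tested. Transcripts of the introduced and any remaining endogenous ARID1A could not be separated in these counts.

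Across all genes 4914 of 21620 (22.7%) were called, 2457 higher (11.4%) and 2457 lower (11.4%) with shSTUB1. In 4792 of them the libraries of the groups did not overlap, which was so for 37.6% of all genes tested. Most differences were below 2-fold: the median size among called genes was 0.50 on the log2 scale, and 638 had a log2 difference of at least 1 in size, 281 higher and 357 lower. Of 15123 protein-coding genes tested, 2105 rose and 2276 fell, a larger share in each direction than the 11.4% of all genes. Counts in gene lists, whose members are mostly protein-coding, are to be read against both. Over all genes the median difference was -0.0015. The count of called genes was 3048 without V2084D replicate 1 (1430 higher, 1618 lower), and 1625 genes were higher without shSTUB1 replicate 1.

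**Figure D1:**
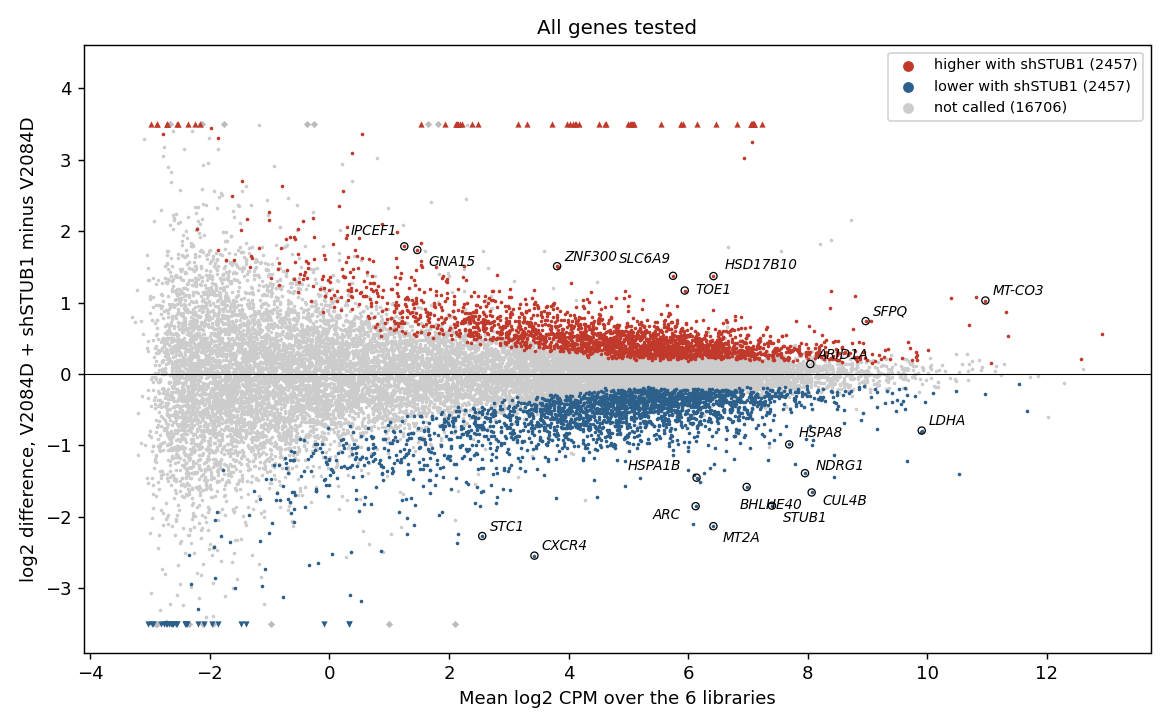
Each point is a gene, with the mean log2 CPM over the 6 libraries on the x axis and the log2 difference of shSTUB1 (V2084D + shSTUB1) minus V2084D on the y axis. Red and blue mark the 2457 genes called higher and the 2457 called lower. The 107 genes beyond 3.5 on either side are drawn at that limit, as triangles if called and as grey diamonds if not, and among them are small RNAs of shSTUB1 replicate 2 and genes without counts in a group. STUB1 and CUL4B lie far below 0 among genes of high level, and MT-CO3 lies above 0.

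Of the HSP70 genes, whose products STUB1 binds, HSPA8, HSPA1B and HSPA1A fell with shSTUB1. HSPA8 (ENSG00000109971, GRCh38 chromosome 11, 123057489 to 123063230, minus strand), the constitutive cytosolic HSP70, had the smallest p of all genes. It was at 134, 137 and 144 CPM in shSTUB1 and 277, 275 and 271 CPM in V2084D, and fell by 0.99 on the log2 scale (SE 0.042, adjusted p = 4.07e-06). HSPA1B, a stress-inducible HSP70, was at 34.95, 39.6 and 38.7 CPM against 108, 97.7 and 104 CPM, a difference of -1.45 (SE 0.068, adjusted p = 4.21e-06). Its near-identical copy HSPA1A was at 18.8, 19.9 and 20.2 CPM against 57.98, 47.8 and 55.3 CPM, a difference of -1.45 (SE 0.082, adjusted p = 6.33e-06), and how reads were split between the pair is not given in the sources used here. DNAJB1, an HSP40 co-chaperone of HSP70, was at 32.5, 32.8 and 28.8 CPM against 47.99, 41.8 and 45.4 CPM and fell by 0.52 on the log2 scale (SE 0.08, adjusted p = 0.00133). For all 4 genes every shSTUB1 library lay below every V2084D library. The other HSP70 genes of the heat shock list were not called: HSPA6 (-1.08, adjusted p = 0.0616) and HSPA1L (1.14, adjusted p = 0.142), both low in level, and the related HSPA4 (-0.011), HSPA4L (0.31) and HSPH1 (0.051).

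The same 4 genes stood far higher in WT, at 2034, 2029 and 2026 CPM for HSPA8, 1021, 1003 and 1114 for HSPA1B, 577, 544 and 614 for HSPA1A and 141, 139 and 148 for DNAJB1. V2084D minus WT was -2.89 (adjusted p = 9.4e-11) for HSPA8 and -3.34 (adjusted p = 1.72e-09) for HSPA1B. For shSTUB1 minus WT the values were -3.87 (adjusted p = 6.75e-12) and -4.79 (adjusted p = 7.93e-11). These comparisons share libraries with each other and with shSTUB1 minus V2084D, so their values are set side by side only. Over all genes V2084D minus WT had 43.9% called (22.7% higher and 21.2% lower) and shSTUB1 minus WT 46.9% (24.1% higher and 22.8% lower).

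Of 29 heat shock genes tested, 9 fell and 0 rose, against 11.4% in each direction over all genes, with a median difference of -0.11. Those that fell beside the HSP70 genes and DNAJB1 included STIP1, DNAJB2, FKBP4 and HSPB1, with differences from -0.47 (DNAJB2) to -0.17 (FKBP4, an HSP90 co-chaperone). HSP90AA1, the inducible cytosolic HSP90, was not called, at 1051, 1062 and 995 CPM in shSTUB1, 988, 1019 and 1064 CPM in V2084D and 3729, 3629.7 and 3415 CPM in WT (0.017, adjusted p = 0.842). Among 32 STUB1 partners, which share HSP70 genes with that list, 6 fell and 2 rose. The ones that rose were UBE2N (0.28), an E2 enzyme that works with STUB1, and BAG2 (0.28), a co-chaperone that inhibits STUB1. In a list of the CCT chaperonin, which folds actin and tubulin, and of prefoldin, which hands it these clients, 3 of 14 rose (CCT3, CCT2 and CCT6A, by 0.33, 0.21 and 0.16) and CCT8 fell by 0.29, while none of the prefoldin genes was called. The calls of CCT2 and CCT6A were lost in 11 and 14 of 18 alternatives of scaling, filter, fit or left-out library. A list of mitochondrial chaperones, proteases and stress hormones was near the 11.4% of all genes in each direction, with 2 of 16 higher, the protease AFG3L2 and the chaperone DNAJA3, and 3 lower, the protease SPG7 and the secreted stress hormones GDF15 (-1.16) and FGF21 (-1.05). Both hormones were low, with means of 0.886 (GDF15) and 1.54 CPM (FGF21) in shSTUB1 and 1.98 and 3.19 CPM in V2084D. The calls of FGF21 and DNAJA3 were lost in 5 and 10 of the 18 alternatives.

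**Figure D2:**
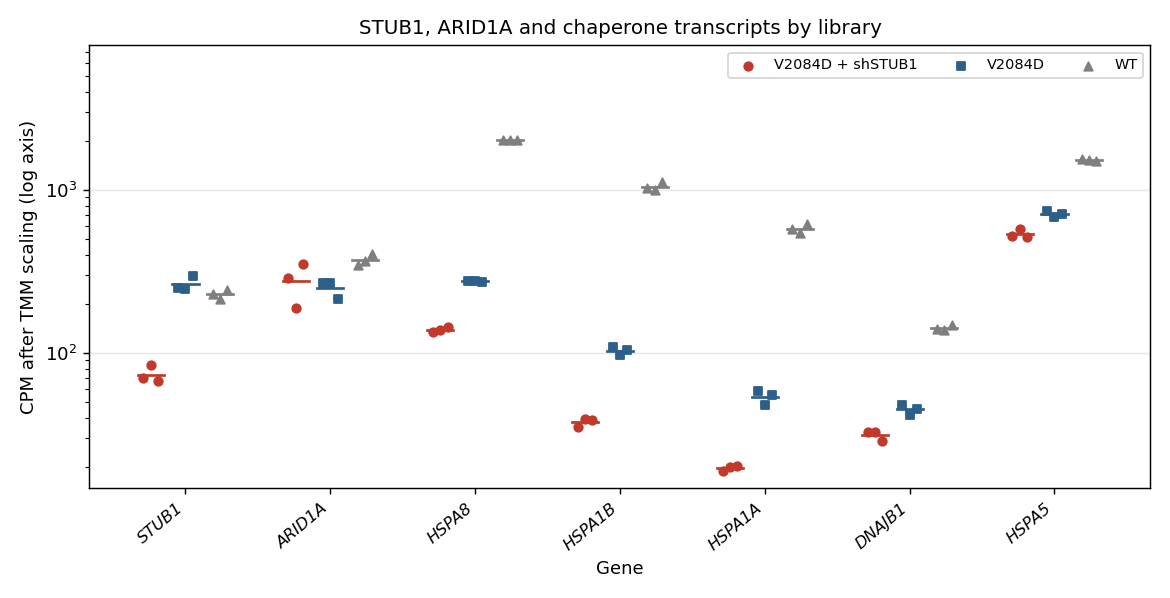
CPM of each library on a log axis for STUB1, ARID1A and 5 chaperone genes. Red circles are shSTUB1 (V2084D + shSTUB1), blue squares V2084D and grey triangles WT, 3 libraries each, and bars are group means. The shSTUB1 libraries of STUB1 and of the HSP70 genes shown lie below both other groups, and those of ARID1A lie on both sides of the V2084D libraries.

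Promoters of the HSP70 genes are shown because heat shock factor binds inverted repeats of GAA there. The windows are the 250 bases before the start in RefSeq (GRCh38.p14), read 5′ to 3′ on the gene strand, at chr11:123062137-123062386 (minus strand) for HSPA8 and chr6:31815293-31815542 (plus strand) for HSPA1A. Capitals mark every match of GAANNTTC or TTCNNGAA on either strand.
HSPA8: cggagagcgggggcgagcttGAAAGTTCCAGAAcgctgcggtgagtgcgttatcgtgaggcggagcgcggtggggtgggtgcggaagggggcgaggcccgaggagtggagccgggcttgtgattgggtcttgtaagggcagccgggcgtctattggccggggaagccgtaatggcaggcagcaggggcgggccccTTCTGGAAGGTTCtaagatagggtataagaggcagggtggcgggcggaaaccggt
HSPA1A: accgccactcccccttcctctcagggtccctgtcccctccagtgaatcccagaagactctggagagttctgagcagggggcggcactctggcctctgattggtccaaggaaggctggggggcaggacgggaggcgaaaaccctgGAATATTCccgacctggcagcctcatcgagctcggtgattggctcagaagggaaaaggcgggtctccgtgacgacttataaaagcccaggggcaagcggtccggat
HSPA8 had 4 matches, overlapping in 2 clusters, and HSPA1A had 1. Of the tested genes 12889 matched a promoter entry by symbol, with 18597 promoters in all. The motif was in 16 of 41 promoters of the heat shock list (39.0%) and in 9.13% of all promoters, 9.3% of those of genes called higher and 7.87% of those of genes called lower. A match is a match of letters and shows no binding.

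ER chaperones and the unfolded protein response moved in part in the same direction: 10 of 25 tested genes fell and 1 rose, with a median of -0.092. HSPA5 (BiP), the HSP70 of the endoplasmic reticulum, was at 523, 577 and 514 CPM in shSTUB1, 747, 678 and 709 CPM in V2084D and 1554, 1520.3 and 1496 CPM in WT, and fell by 0.40 on the log2 scale (SE 0.055, adjusted p = 0.000712). ERN1, which encodes the stress sensor IRE1, was at 12.2, 13.2 and 13.7 CPM against 22.5, 23.1 and 19.6 CPM (-0.74). HERPUD1 and EDEM1, both of ER-associated degradation, fell by 0.49 and 0.44. The gene that rose was XBP1 (0.35), whose mRNA IRE1 splices. Splice forms were not measured.

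Hypoxia-inducible genes had the largest share of lower members among the 43 pathway lists. HIF1, the factor that drives them, is made unstable by oxygen-dependent hydroxylation. Of 19 tested, 18 fell and 0 rose, and the median difference was -0.86. The mRNA of HIF1A itself was the one not called (0.057, adjusted p = 0.677). NDRG1, a stress-induced growth regulator, was at 136, 136 and 139 CPM in shSTUB1 and 378, 369 and 329 CPM in V2084D, and fell by 1.39 on the log2 scale (SE 0.068, adjusted p = 4.21e-06). MXI1, an antagonist of MYC, was at 37.3, 36.1 and 35.2 CPM against 90.4, 99.5 and 85.5 CPM (-1.34). BNIP3, a receptor for the removal of mitochondria, was at 48.01, 52.2 and 42.2 CPM against 106, 126 and 121 CPM (-1.31). No shSTUB1 library reached the V2084D range for any of the 3. DDIT4 (REDD1), an inhibitor of mTORC1, was at 167, 203 and 192 CPM against 478, 459.7 and 593 CPM and fell by 1.44 on the log2 scale (SE 0.10, adjusted p = 2.11e-05). CA9, a carbonic anhydrase used as a hypoxia marker, had the largest fitted difference (-3.17), at low levels of 0.309, 0.106 and 0.429 CPM against 1.78, 2.98 and 2.92 CPM. The smallest was that of VEGFA, the vascular growth factor (-0.23).

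V2084D minus WT was called higher for 13 of the 19 hypoxia genes and lower for 0, against 22.7% and 21.2% of all genes. BNIP3 was at 64.5, 62.5 and 63.5 CPM in WT, MXI1 at 46.4, 48.8 and 46.5 CPM and DDIT4 at 76.6, 71.7 and 77.6 CPM. V2084D minus WT was 0.89 (adjusted p = 2.66e-05) for BNIP3, 0.96 (adjusted p = 2.55e-06) for MXI1 and 2.76 (adjusted p = 6.13e-08) for DDIT4. With shSTUB1, BNIP3 and MXI1 lay below WT, at -0.42 (adjusted p = 0.00353) and -0.38 (adjusted p = 0.000997), and DDIT4 above it, at 1.32 (adjusted p = 3.34e-06). NDRG1 was at 342, 341 and 376 CPM in WT, and V2084D minus WT was 0.022 (adjusted p = 0.815). BHLHE40, a transcriptional repressor of the circadian clock that hypoxia also induces, was outside the list and among the 6 lower genes with the smallest p. It was at 59.01, 63.9 and 66.5 CPM in shSTUB1, 173, 205 and 189 CPM in V2084D and 77.7, 83.1 and 83.8 CPM in WT, and shSTUB1 minus V2084D was -1.58 (SE 0.083, adjusted p = 4.21e-06).

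Glycolysis, much of which HIF1 also induces, fell in 13 of 21 tested genes and rose in 0, with a median of -0.40. LDHA, which reduces pyruvate to lactate, was at 691, 740.2 and 676 CPM in shSTUB1, 1187, 1233 and 1227 CPM in V2084D and 1201, 1194 and 1169 CPM in WT, and fell by 0.79 on the log2 scale (SE 0.045, adjusted p = 6.33e-06). PGK1, the first ATP-forming step, was at 183, 187 and 170.3 CPM against 339, 374 and 359.7 CPM in V2084D (-0.99). ALDOA, which splits fructose bisphosphate, was at 676, 709 and 682 CPM against 1155, 1253 and 1210.1 CPM (-0.81), and the enolase ENO2 at 53.3, 57.9 and 53.7 CPM against 154, 135 and 131 CPM (-1.35). Each of these 4 genes had all shSTUB1 libraries below all V2084D libraries. Both hexokinases on the list fell (HK1 -0.61, HK2 -0.78), as did GAPDH (-0.51) and PKM (-0.40). TPI1, PFKM, PGAM1 and LDHB were not called, with differences from -0.0045 to 0.082.

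Promoters of BNIP3 and PGK1 are shown for the letters of the hypoxia response element core, ACGTG, a motif chosen after the values were seen. They lie at chr10:131981924-131982173 (minus strand) and chrX:78103998-78104247 (plus strand), with capitals for ACGTG on either strand.
BNIP3: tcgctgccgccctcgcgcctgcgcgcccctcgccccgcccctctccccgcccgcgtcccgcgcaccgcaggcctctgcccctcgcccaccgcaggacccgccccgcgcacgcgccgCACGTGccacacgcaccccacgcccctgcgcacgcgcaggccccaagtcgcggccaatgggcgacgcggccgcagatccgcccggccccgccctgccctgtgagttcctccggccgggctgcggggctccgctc
PGK1: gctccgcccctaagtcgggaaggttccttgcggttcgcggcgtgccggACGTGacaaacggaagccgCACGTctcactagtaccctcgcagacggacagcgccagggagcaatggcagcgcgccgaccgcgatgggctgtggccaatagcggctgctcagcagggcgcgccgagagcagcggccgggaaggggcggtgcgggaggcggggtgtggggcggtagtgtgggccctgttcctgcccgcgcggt
The match in BNIP3 is CACGTG, which reads as ACGTG on both strands and is also an E-box. PGK1 had 2 matches. The core was in 9 of 22 promoters of the hypoxia list (40.9%), 34.9% of those of the glycolysis list, 21.5% of all promoters, 636 of the 2549 promoters of genes called higher and 555 of the 2769 of genes called lower. CACGTG alone was in 13.6% of the hypoxia list promoters, 11.6% of the glycolysis list promoters and 7.9% of all. No promoter of NDRG1 is shown.

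Immediate early genes, which growth factor and stress kinases switch on within minutes, fell in 19 of 26 tested and rose in 0, with a median of -0.72. ARC, a neuronal cytoskeletal gene that many cells induce with serum, was at 27.3, 34.5 and 29.1 CPM in shSTUB1, 129.5, 115 and 82.8 CPM in V2084D and 54.1, 49.4 and 59.96 CPM in WT, and fell by 1.85 on the log2 scale (SE 0.16, adjusted p = 6.9e-05). JUNB, an AP-1 subunit, was at 16.3, 17.9 and 19.1 CPM against 34.1, 36.1 and 37.4 CPM in V2084D and 84.8, 93.02 and 92.2 CPM in WT (-1.01). IER3, a survival gene, was at 12.2, 17.8 and 16.8 CPM against 41.3, 48.7 and 48.3 CPM (-1.56). EGR3, a zinc finger factor of the same response, was at 1.25, 0.816 and 0.9 CPM against 4.75, 4.03 and 4.12 CPM (-2.12). The groups did not overlap for any of these 4. JUN fell by 1.39, FOSL1 by 1.05 and EGR1 by 0.52, whereas FOS (-0.99, adjusted p = 0.104) and MYC (0.015, adjusted p = 0.897) were not called. The AP-1 motif TGANTCA was in 4.51% of all promoters, 3.77% of those of genes called higher and 4.91% of those of genes called lower.

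Feedback genes of the ERK pathway had 8 of 22 lower and 2 higher. EPHA2, a receptor tyrosine kinase, was at 21.8, 20.1 and 21.2 CPM in shSTUB1 against 42.6, 33.7 and 35.1 CPM in V2084D (-0.82), and the MAP kinase phosphatases DUSP4 and DUSP5 fell by 0.70 and 1.02. The phosphatase DUSP2 and the ETS factor ETV4 rose, by 0.66 and 0.37, and DUSP6 was not called (0.0061). Targets of YAP and TEAD, the factors that the Hippo kinases hold back, had 10 of 31 lower and 1 higher, FOXF2 (0.27). CCN1 and CCN2, both secreted matricellular proteins, were at 47.2, 48.7 and 48.9 CPM and 8.72, 9.01 and 9.29 CPM in shSTUB1, against 102, 90.9 and 72.9 CPM and 15.97, 15.9 and 13.4 CPM in V2084D. CCN1 is also on the immediate early list and was counted among its lower members. TEAD3 fell by 0.83 and ANKRD1, a mechanically induced cofactor, by 1.83. The TEAD motif GGAATG was in 9.96% of all promoters, 10.9% of those of genes called higher and 8.85% of those of genes called lower.

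Metallothioneins, small cysteine-rich proteins that bind zinc and copper, showed some of the largest decreases. MT2A (ENSG00000125148, GRCh38 chromosome 16, 56608199 to 56609497, plus strand) was at 30.4, 36.5 and 28.7 CPM in shSTUB1, 117, 155 and 147 CPM in V2084D and 25.4, 24.5 and 29.1 CPM in WT, and fell by 2.13 on the log2 scale (SE 0.13, adjusted p = 9.26e-06). MT1X was at 24.2, 27.5 and 24.8 CPM in shSTUB1, 84.4, 118 and 124 CPM in V2084D and 27.4, 27.3 and 29.8 CPM in WT (-2.10). MT1F was at 4.38, 4.79 and 4.21 CPM, 7.90, 9.22 and 10.8 CPM and 3.56, 1.96 and 2.79 CPM in the same groups (-1.06). In all 3 genes the V2084D libraries were the high ones. V2084D minus WT was 2.41 (adjusted p = 4.46e-07) for MT2A and 1.95 (adjusted p = 1.46e-06) for MT1X, and shSTUB1 minus WT was 0.28 (adjusted p = 0.0956) and -0.14 (adjusted p = 0.382). Of 11 metallothionein and zinc genes listed, 7 were tested, 4 fell and 0 rose. The fourth was the zinc importer SLC39A10 (-0.65), and the zinc exporter SLC30A1 and the factor MTF1 were not called (-0.23 and -0.16). Metallothionein genes are close paralogs, and reads they share were assigned by rules not given in the sources used here.

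The 2 metallothionein promoters carry repeats of the metal response element that MTF1 binds, shown as TGCNCNC on either strand, a motif also chosen after the values were seen. They lie at chr16:56608334-56608583 and chr16:56682220-56682469, both on the plus strand.
MT2A: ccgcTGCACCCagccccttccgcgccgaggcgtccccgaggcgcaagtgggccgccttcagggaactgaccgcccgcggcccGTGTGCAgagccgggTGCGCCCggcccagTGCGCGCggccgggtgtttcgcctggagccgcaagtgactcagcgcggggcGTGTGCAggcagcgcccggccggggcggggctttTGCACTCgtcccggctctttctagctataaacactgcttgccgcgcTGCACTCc
MT1X: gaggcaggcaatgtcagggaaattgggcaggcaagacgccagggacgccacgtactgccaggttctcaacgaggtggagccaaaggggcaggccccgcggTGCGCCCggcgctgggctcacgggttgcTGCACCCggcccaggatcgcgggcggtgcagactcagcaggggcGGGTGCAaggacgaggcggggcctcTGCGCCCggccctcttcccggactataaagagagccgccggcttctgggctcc
MT2A had 7 matches and MT1X 4. The letters are loose, and 55.5% of all promoters had at least 1 match, with 54.5% for genes called higher and 59.7% for genes called lower.

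**Figure D3:**
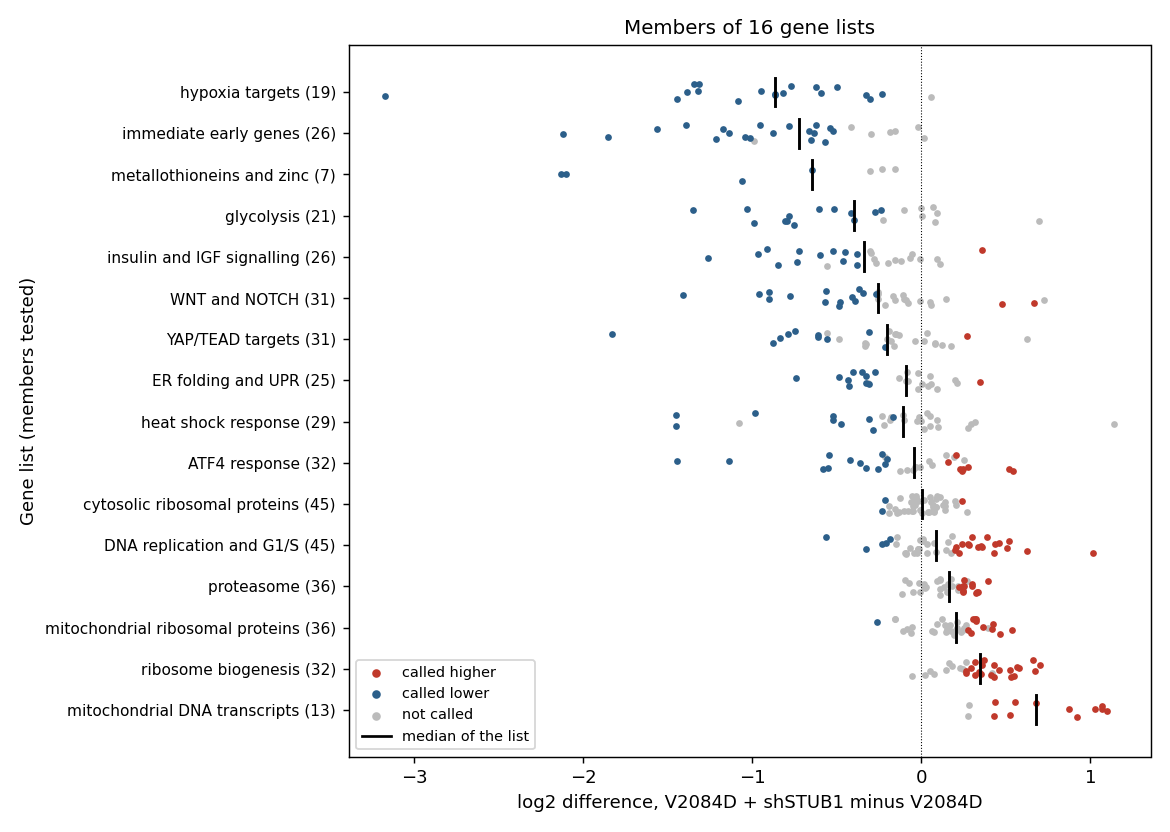
Each point is a tested member of 1 of 16 gene lists (members tested in brackets), with its log2 difference of shSTUB1 (V2084D + shSTUB1) minus V2084D on the x axis. Blue and red are called lower and higher, grey is not called, and the black bar is the median, from -0.86 for hypoxia targets to 0.68 for mitochondrial DNA transcripts. The scatter within a row has no meaning. The cytosolic ribosomal proteins lie close around 0.

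In insulin and IGF signalling 12 of 26 fell and 1 rose, PIK3R3 (0.36), with a median of -0.34. The list is wider than its name: it also held TXNIP and its relatives ARRDC4 (-0.72) and ARRDC3 (-0.45), all counted as lower. PDK4 was in it too and was not called (-0.30). INSR, the insulin receptor, was at 17.8, 16.1 and 20.8 CPM in shSTUB1 against 33.9, 34.5 and 29.8 CPM in V2084D (-0.85). AKT1, the kinase downstream of it, was at 102, 104 and 107 CPM against 163, 149 and 161 CPM (-0.60). TXNIP, a glucose-induced inhibitor of glucose uptake, was at 124, 139.8 and 125 CPM in shSTUB1, 375, 305 and 253 CPM in V2084D and 23.8, 23.7 and 22.1 CPM in WT, and fell by 1.26 on the log2 scale (SE 0.12, adjusted p = 0.000118). Its shSTUB1 libraries lay between V2084D and WT, and shSTUB1 minus WT was 2.49 (adjusted p = 2.86e-07). The binding protein IGFBP5 fell by 0.97.

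In the WNT and NOTCH list 14 of 31 fell and 2 rose, with a median of -0.26. The count of lower members was 8 without shSTUB1 replicate 1, 9 without V2084D replicate 2 or 3, and 9 in a fit of the 6 libraries alone. The receptor NOTCH3 was at 39.9, 33.04 and 39.01 CPM in shSTUB1 against 102, 102 and 92.4 CPM in V2084D (-1.41). The ligand JAG2 was at 77.9, 79.1 and 79.6 CPM against 155, 149 and 156 CPM (-0.96), and the ligand DLL1 at 15.9, 15.5 and 15.9 CPM against 31.4, 27.5 and 29.6 CPM (-0.90). FZD7, a WNT receptor, fell by 0.57. The members that rose were LGR5, an R-spondin receptor (0.48), and DKK1, a secreted WNT inhibitor (0.67). Among TGF-beta and BMP genes 7 of 27 fell and 1 rose, the receptor ACVR2A (0.35). TGFB1 was at 33.3, 36.7 and 34.6 CPM in shSTUB1 against 74.9, 72.1 and 71.8 CPM in V2084D (-1.07), and BMP7 at 34.6, 35.4 and 36.3 CPM against 54.1, 57.2 and 52.2 CPM (-0.62).

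Matrix, cytoskeletal and neuronal lists had more lower than higher members. In the extracellular matrix list 10 of 39 fell and 2 rose. The laminin chain LAMA5 was at 40.95, 35.8 and 46.2 CPM in shSTUB1 against 93.5, 90.01 and 75.3 CPM in V2084D (-1.07), and the laminin receptor subunit ITGA3 at 11.7, 9.61 and 11.4 CPM against 20.5, 19.9 and 18.5 CPM (-0.85). COL3A1 and COL9A2 rose, by 0.38 and 0.62, and COL1A1 fell by 0.35. COL1A1 and COL3A1, which also mark fibroblasts, thus moved in opposite directions. In the cytoskeleton and adhesion list 11 of 34 fell and 1 rose, the adhesion molecule EPCAM (0.64). ACTG1, a cytoplasmic actin, was at 625, 694 and 657 CPM in shSTUB1, 890.3, 968 and 926 CPM in V2084D and 2754, 2703 and 2976 CPM in WT (-0.49). Of 26 neuronal genes 10 fell and 0 rose, among them the splicing factor NOVA2 (-0.85), the adhesion molecule NCAM1 (-0.78), the tubulin TUBB3 (-0.82) and MAPT, which encodes tau (-0.56).

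Genes of the ATF4 response, which cells switch on when amino acids are short or eIF2 is phosphorylated, moved both ways: 8 of 32 rose and 12 fell, with a median of -0.043. ASNS, asparagine synthetase, was at 646, 691 and 599 CPM in shSTUB1, 879, 869.8 and 846 CPM in V2084D and 142, 144 and 134 CPM in WT, and fell by 0.42 on the log2 scale (SE 0.058, adjusted p = 0.000749). CHAC1, which degrades glutathione, was at 45.99, 49.5 and 45.05 CPM, 74.8, 65.8 and 65.7 CPM and 12.8, 14.1 and 14.05 CPM in the same groups (-0.55). In both genes the shSTUB1 libraries lay between V2084D and WT, and shSTUB1 minus WT was 2.20 (adjusted p = 4e-09) for ASNS and 1.78 (adjusted p = 8.14e-08) for CHAC1. WARS1, a tRNA synthetase, rose, at 365, 347 and 356 CPM against 234, 255 and 244 CPM in V2084D (0.54). The higher count was 2 without shSTUB1 replicate 1, 3 without V2084D replicate 1 or 2, 5 without WT replicate 1 and 2 in a fit of the 6 libraries alone. The lower count was 6 without shSTUB1 replicate 1, 7 without V2084D replicate 1 or 3, and 7 with no filter. The ATF4 motif TGATGNAA was in 1.82% of all promoters, 1.69% of those of genes called higher and 1.55% of those of genes called lower.

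Of 22 tRNA synthetase genes 6 rose and 1 fell, AARS1 (-0.26). Beside WARS1 they included the scaffold AIMP2 (0.57), VARS1 (0.40) and RARS1 (0.47). Among amino acid transporters 3 of 17 rose and 1 fell, the glutamate transporter SLC1A1 (-0.63). SLC6A9 (ENSG00000196517, GRCh38 chromosome 1, 43991500 to 44031467, minus strand), the glycine transporter GLYT1, had the smallest p of the protein-coding genes that rose. It was at 75.7, 69.7 and 87.004 CPM in shSTUB1, 29.5, 31.7 and 28.5 CPM in V2084D and 14.2, 13.4 and 13.5 CPM in WT, and rose by 1.37 on the log2 scale (SE 0.085, adjusted p = 9.41e-06). Every shSTUB1 library thus exceeded every V2084D library, and these exceeded WT. The others that rose were the heavy chain SLC3A2 (0.24) and the transporter SLC43A2 (0.34). Their calls were lost in 7 and 10 of the 18 alternatives.

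Of 25 cholesterol genes 5 rose and 8 fell. INSIG1, a sterol sensor, was at 23.9, 26.1 and 24.8 CPM in shSTUB1, 42.2, 47.7 and 47.1 CPM in V2084D and 108, 108 and 98.97 CPM in WT (-0.87). ACAT2, MVK, FDPS and CYP51A1, all enzymes of the pathway, rose by 0.29 to 0.52, and other enzymes of it, SQLE, MSMO1, HMGCS1, IDI1, TM7SF2 and FDFT1, fell, with differences from -0.71 to -0.23. Fatty acid synthesis was near the share of all genes, with 2 of 13 higher, ELOVL6 and SREBF1 (0.26 and 0.21), and 2 lower, ELOVL5 and FADS2 (-0.46 and -0.26). NRF2 targets had 4 of 19 higher, the quinone reductase NQO1 (0.501) and the pentose phosphate enzymes TALDO1, PGD and TKT (0.21 to 0.39). 4 were lower: heme oxygenase HMOX1, at 37.8, 43.03 and 33.03 CPM against 68.2, 79.6 and 77.6 CPM (-0.98), OSGIN1 (-1.04) and both ferritin chains, FTL (-0.47) and FTH1 (-0.40). Interferon response genes had 2 of 31 higher and 6 lower, with ISG15, a ubiquitin-like modifier, at 85.5, 102 and 71.2 CPM against 154, 151 and 169.8 CPM (-0.88).

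In the other direction, of 32 ribosome biogenesis genes 21 rose and 0 fell, with a median of 0.35. NOP58 and NOP56, core proteins of box C/D snoRNPs that guide rRNA methylation, were at 330.1, 331 and 295 CPM and 326, 328 and 309.8 CPM in shSTUB1, against 189, 204 and 208 CPM and 233, 239 and 250.5 CPM in V2084D. They rose by 0.67 and 0.41. RRP12, an export factor of pre-ribosomes, was at 59.2, 51.3 and 54.1 CPM in shSTUB1, 32.2, 36.7 and 35.2 CPM in V2084D and 72.9, 68.4 and 78.1 CPM in WT (0.66). For all 3 the groups did not overlap, but no member of the list reached a difference of 1. Host genes of snoRNAs had 6 of 18 higher and 1 lower, SNHG3 (-0.55), with SNHG17, SNHG15, SNHG20 and SNHG1 higher by 0.45 to 0.81. The 45 cytosolic ribosomal protein genes had 1 higher, RPL6 (0.24), and 2 lower, RPSA (-0.23) and RPL37 (-0.21). These 3 calls were lost in 9 to 13 of the 18 alternatives. Translation factors had 9 of 34 higher and 1 lower, EIF1 (-0.21). EIF5, which triggers GTP hydrolysis at the start codon, was at 668, 686 and 653 CPM in shSTUB1 against 352, 408 and 439 CPM in V2084D (0.74).

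The 13 mRNAs of the mitochondrial genome took 2.97, 2.93 and 3.28% of all counts in shSTUB1, 2.07, 2.15 and 1.62% in V2084D and 2.82, 3.04 and 3.01% in WT. Of these 13 genes 11 rose and 0 fell, with a median of 0.68. The count was 7 with offsets for GC content and transcript length, and 5 when a replicate block was added to these. MT-CO3 and MT-CO2, subunits of cytochrome c oxidase, were at 2602, 2799 and 2673 CPM and 3107, 3336 and 3446 CPM in shSTUB1, against 1397, 1418 and 1143 CPM and 1812, 1968 and 1614 CPM in V2084D. MT-CO3 differed by 1.03 (SE 0.074, adjusted p = 2.18e-05), and MT-CO2 by 0.87 (SE 0.07, adjusted p = 5.17e-05). MT-ATP6, a subunit of ATP synthase, was at 2374, 2427 and 2515 CPM in shSTUB1, 1286, 1259 and 937 CPM in V2084D and 2416, 2657 and 2612 CPM in WT (1.07). MT-ND3, a subunit of complex I, was higher by 0.92. The 2 not called were MT-ND1 (0.27) and MT-ND5 (0.28). V2084D minus WT was -0.996 (adjusted p = 2.9e-06) for MT-CO3 and -1.14 (adjusted p = 8.33e-06) for MT-ATP6, and shSTUB1 minus WT was 0.033 (adjusted p = 0.751) and -0.071 (adjusted p = 0.591). Nuclear copies of mitochondrial genes can share such reads.

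Mitochondrial ribosomal proteins, which are encoded in the nucleus, had 11 of 36 higher and 1 lower, MRPS7 (-0.26), with a median of 0.21. MRPL15 was at 81.5, 87.7 and 79.1 CPM in shSTUB1 against 50.4, 59.2 and 61.97 CPM in V2084D (0.53). The higher count was 4 without V2084D replicate 1, 6 without V2084D replicate 2 or shSTUB1 replicate 1, 17 without shSTUB1 replicate 3 and 4 in a fit of the 6 libraries alone. The respiratory chain had 6 of 41 higher and 2 lower, both of succinate dehydrogenase: SDHB, at 39.4, 41.8 and 38.1 CPM against 61.8, 59.8 and 66.8 CPM (-0.66), and SDHA (-0.25). The call of SDHA was lost in 5 of the 18 alternatives.

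The proteasome, which degrades what STUB1 and other ligases mark, had 12 of 36 genes higher and 0 lower, with a median of 0.17. The ATPase PSMC3 was at 231, 257 and 221 CPM in shSTUB1 against 169.9, 174 and 196 CPM in V2084D (0.39), and the lid subunit PSMD6 at 116, 125 and 116 CPM against 94.3, 95.4 and 95.8 CPM (0.32). The count was 3 without V2084D replicate 1, 5 without V2084D replicate 2 or shSTUB1 replicate 1, 7 without WT replicate 1 or 2 and 5 in a fit of the 6 libraries alone. In the wider ubiquitin system 3 of 44 rose and 7 fell. The E3 scaffold CUL3 fell by 0.42 and the membrane ligase MARCHF6 by 0.52. CUL4B (ENSG00000158290, GRCh38 chromosome X, 120524609 to 120575794, minus strand), the scaffold of another ubiquitin ligase family, lay outside the list and fell more than any of its members. It was at 127, 129.9 and 129.99 CPM in shSTUB1, 384, 454 and 382 CPM in V2084D and 293, 309 and 262 CPM in WT, a 3.16-fold difference of -1.66 (SE 0.083, adjusted p = 4.21e-06). Lysosome and autophagy genes had 6 of 38 higher and 11 lower, with the starting kinase ULK1 at 33.7, 29.7 and 33.6 CPM against 55.2, 55.4 and 50.01 CPM (-0.73).

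Genes of DNA replication had more higher than lower members, and those of mitosis more lower than higher. In the DNA replication and G1/S list 18 of 45 rose and 5 fell, with a median of 0.087, and 11 rose without V2084D replicate 1. GINS3, a subunit of the replicative helicase, was at 29.2, 32.1 and 30.2 CPM in shSTUB1, 14.5, 16.1 and 14.7 CPM in V2084D and 39.4, 38.8 and 38.2 CPM in WT, and rose by 1.01 on the log2 scale (SE 0.072, adjusted p = 2.08e-05). CDC45 and GINS4, of the same helicase, rose by 0.46 and 0.39. The lower members were SLBP, which binds histone mRNA (-0.56), CDT1, CDC25A, E2F1 and CCNE1 (-0.33 to -0.19). In mitosis and G2/M 9 of 40 fell and 1 rose, CDC25C (0.30), with CKS2 at 60.7, 70.5 and 62.1 CPM against 104, 105 and 90.3 CPM (-0.63) and CDC20 lower by 0.31. The difference between these lists was not tested.

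In the BCL2 family 4 of 16 fell, among them the death-promoting BMF (-1.04), BBC3 (-0.78) and BCL2L11 (-0.36), with the survival gene BCL2 (-0.41), and 1 rose, BCL2L13 (0.28).

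Chromatin regulators were split. In the BAF complex 7 of 29 fell and 1 rose, ACTL6A, at 40.5, 40.8 and 37.4 CPM in shSTUB1 against 31.8, 30.3 and 33.4 CPM in V2084D (0.31). BCL7A, BRD7 and SS18L1 fell by 0.30 to 0.38. Polycomb genes had 9 of 29 higher and 8 lower: the methyltransferase EZH2 rose by 0.45 and its paralog EZH1 fell by 0.44. HOX genes had 2 of 38 higher, HOXB13 (0.29) and HOXA7 (0.39), and 7 lower, with HOXA4 at 5.85, 6.63 and 6.12 CPM against 8.95, 10.97 and 10.4 CPM (-0.70). Kidney progenitor factors had 2 of 16 higher, WT1 (0.49) and MEIS1 (0.33), and 4 lower, among them TFAP2A (-0.59), FOXD1 (-0.40) and SALL1 (-0.498). Of 51 histone genes, whose mRNAs mostly lack a poly(A) tail, 30 were tested, with 3 higher (H4C3, H2AC20 and H2BC12) and 2 lower (H2BC21 and H2AC18).

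**Figure D4:**
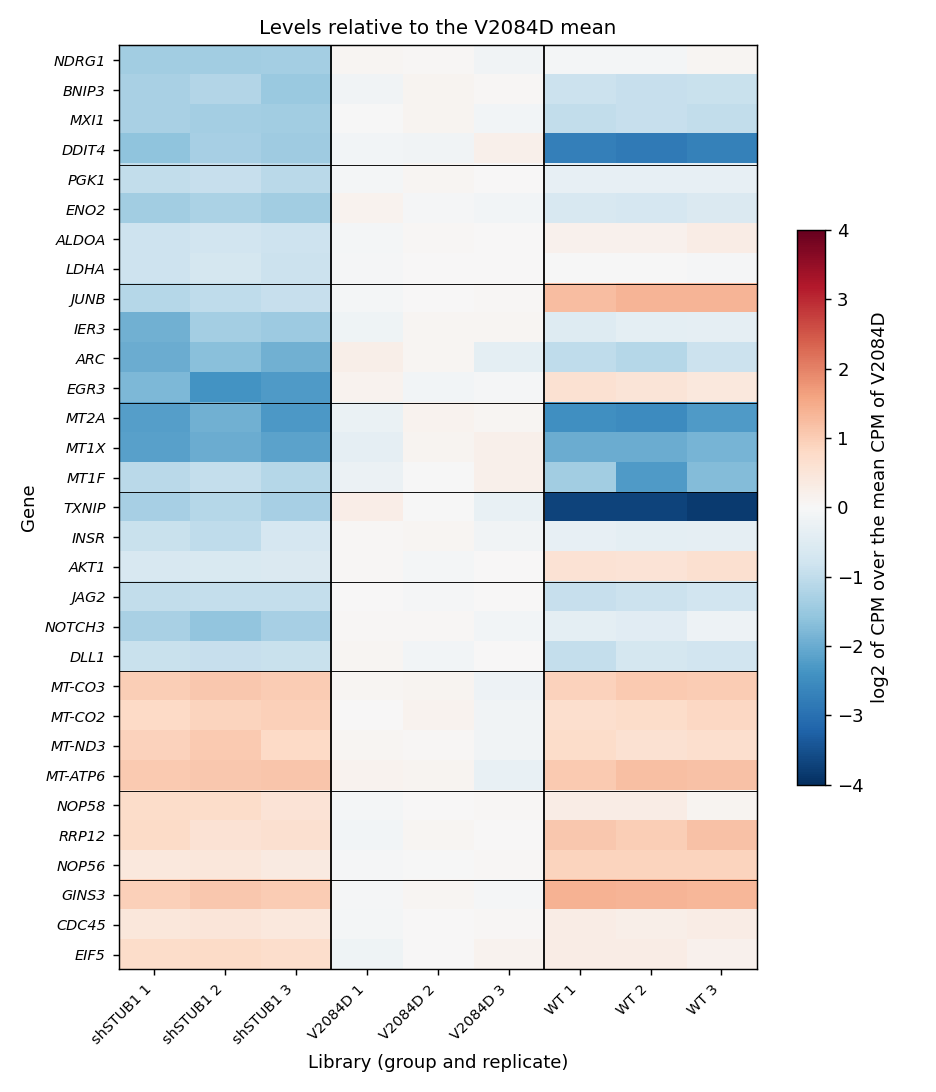
Rows are 31 genes named in the text and columns the 9 libraries. Colour gives the log2 of CPM over the mean CPM of the 3 V2084D libraries, from blue (-4) to red (4). Horizontal lines part hypoxia targets, glycolysis, immediate early genes, metallothioneins, insulin signalling, NOTCH genes, mitochondrial mRNAs, ribosome biogenesis, and replication or translation genes. The first 21 rows are blue in all shSTUB1 libraries and the last 10 red, while WT is blue in some and red in others.

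Among single genes the largest decreases were in CXCR4, STC1, MT2A, EGR3 and MT1X and in the read-through transcript FPGT-TNNI3K, among called protein-coding genes whose groups did not overlap and whose mean log2 CPM was at least 1. CXCR4, the chemokine receptor of CXCL12, was at 2.19, 3.84 and 3.42 CPM in shSTUB1, 15.7, 21.02 and 18.3 CPM in V2084D and 16.5, 14.3 and 15.9 CPM in WT, and fell by 2.54 on the log2 scale (SE 0.20, adjusted p = 4.07e-05). STC1, a secreted glycoprotein that hypoxia can induce, was at 2.03, 1.96 and 2.03 CPM, 9.02, 9.86 and 10.2 CPM and 2.90, 2.72 and 2.75 CPM in the same groups (-2.27). ETS1, a transcription factor of invasive cells, was at 1.70, 1.48 and 1.38 CPM, 6.51, 5.75 and 5.08 CPM and 2.65, 3.07 and 3.11 CPM (-1.92), and the ligand WNT9A at 1.47, 1.69 and 1.15 CPM, 5.79, 5.23 and 5.88 CPM and 2.84, 2.78 and 2.72 CPM (-1.97). For STC1, ETS1 and WNT9A the V2084D libraries were above both other groups, whereas CXCR4 was not called for V2084D minus WT, at 0.24 (adjusted p = 0.333). FLRT1, an adhesion protein, fell by 2.01, CRHR1, a hormone receptor, by 1.94, SUSD4, a complement regulator, by 1.85, and ZCCHC24, a zinc finger gene, by 1.72. FPGT-TNNI3K shares exons with its neighbours and was uneven in shSTUB1, at 1.46, 0.121 and 2.66 CPM against 8.01, 6.95 and 6.96 CPM in V2084D, and its call was lost in 5 of the 18 alternatives.

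Among called protein-coding genes whose groups did not overlap and whose mean log2 CPM was at least 1, the 12 largest increases were between 1.37 and 1.79. IPCEF1, which binds cytohesin exchange factors, was at 3.87, 3.10 and 3.99 CPM in shSTUB1 against 0.965, 0.988 and 1.22 CPM in V2084D, and rose by 1.79 on the log2 scale (SE 0.28, adjusted p = 0.00146). GNA15, a G protein alpha subunit, was at 4.08, 4.61 and 3.97 CPM against 1.23, 0.952 and 1.63 CPM (1.74), and GATM, which makes the creatine precursor, at 2.85, 2.96 and 3.83 CPM against 0.95, 1.11 and 1.06 CPM (1.63). These 3 were low in all libraries. HSD17B10 (ENSG00000072506, GRCh38 chromosome X, 53431258 to 53434373, minus strand), a mitochondrial dehydrogenase that is also part of mitochondrial RNase P, was at 123, 139 and 108 CPM in shSTUB1, 44.9, 39.9 and 58.7 CPM in V2084D and 65.8, 61.9 and 69.7 CPM in WT, and rose by 1.37 on the log2 scale (SE 0.14, adjusted p = 0.000157). TOE1, an exonuclease of small nuclear RNAs, was at 82.7, 91.2 and 81.3 CPM, 36.3, 36.3 and 41.05 CPM and 66.3, 62.6 and 68.2 CPM (1.17). SFPQ, a splicing factor of paraspeckles, was at 609.8, 612 and 657 CPM, 368, 373 and 384 CPM and 759, 791 and 765 CPM (0.74), and SFXN2, a mitochondrial carrier of the sideroflexin family, at 50.4, 52.8 and 50.1 CPM, 22.8, 24.4 and 27.3 CPM and 29.9, 28.6 and 30.9 CPM (1.04). IFNB1, interferon beta, rose by 1.49 at 4.50, 5.80 and 4.83 CPM against 1.68, 1.70 and 2.004 CPM. PRR22 and FILIP1 rose by 1.51 and 1.46.

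Zinc finger genes were 3 of these 12 increases: ZNF300, at 19.8, 20.2 and 22.1 CPM in shSTUB1, 6.10, 7.38 and 8.33 CPM in V2084D and 10.3, 10.2 and 8.34 CPM in WT (1.51), ZNF582 (1.49) and ZNF10 (1.39). All symbols of ZNF and a number, a set chosen after these values were seen, gave 503 tested genes. Of these 141 rose (28.0%) and 25 fell (4.97%), with a median of 0.20, and 74 of the 233 on chromosome 19 rose. GC content moved with the differences over all genes: the 20% of genes lowest in GC, with a median of 38.7% GC, had a median difference of 0.086, and the 20% highest, with a median of 61.6%, had -0.11. With offsets for GC content and transcript length ZNF300, ZNF582 and ZNF10 differed by 1.42, 1.34 and 1.32. The count of the 503 genes under these offsets and the share of all chromosome 19 genes that rose are not given here. Whether the ZNF count goes with GC content was not tested.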

How the data were processed

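Libraries were built from Trizol-extracted, column-cleaned total RNA with an NEBNext Ultra II kit, per the labels' protocols. The deposited values are raw counts per gene, made on genome build GRCh38 per the submitters' processing notes, which also name edgeR without a version. The aligner, the counting tool, the annotation release, the strand setting and the filters are not given in the sources used here. Columns were matched to samples by name. Genes were placed with GENCODE 29 by gene identifier.

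Differences were tested with the quasi-likelihood method of edgeR 4.0.16 (R 4.3.3), after TMM scaling and with Benjamini-Hochberg adjustment over the 21620 genes that had at least 10 counts in at least 3 of the 6 libraries, in 1 fit of all 9 libraries labelled Huh7, with 6 residual degrees of freedom and a common biological coefficient of variation of 22.6%. The SE is the absolute log2 difference over the square root of F. Log2 CPM used a prior count of 2. The pipeline was tested on simulated data. Named genes are STUB1 and ARID1A, in each direction the 12 with the largest difference and the 6 with the smallest p (called, protein-coding, mean log2 CPM of at least 1, no overlap between groups), and up to 4 members of each list by smallest p. Other list members and small RNAs named to complete a count, as range ends or as well-known members were chosen after their values were seen. The comparison, the 43 pathway lists, the 5 marker lists and the members were chosen with earlier results of these data known. No set test was made, and lists are described by counts and medians beside all genes. DESeq2 1.42.0 was one of the alternatives. Promoter windows came from RefSeq (GRCh38.p14). The libraries labelled 293T were not used. A few genes and a list that the rule would name are not reported here.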

Additional observations from a re-analysis of the deposited data

How the results depend on the processing

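The number of called genes, 4914 in the fit reported, was 4894 with RLE size factors, 5808 with DESeq2, 4044 with no filter, 4850 with filterByExpr, 5154 with a filter of 1 CPM, 3948 in a fit of the 6 libraries alone and 5752 with offsets for GC content and transcript length. Leaving out 1 library gave 3048 to 4661 called genes, 1430 to 2310 higher and 1618 to 2410 lower. Where that leaves 2 libraries in a group, the spread is pooled over the groups. With a log2 difference of at least 1 required, 638 genes were called, 281 higher and 357 lower. The higher share of calls was then 44%, and 46.9 to 51.7% under every other alternative. Equal replicate numbers did not pair the samples: their deviations from the group means correlated at 0.056, -0.030 and -0.081. The replicate block gave 4101 called genes, and 4946 with the GC and length offsets, and it changed the list counts given for it here. Depth is not the main limit, since replicate libraries differed with at least 11.3 times the variance expected from counting, but genes with few counts and those with no count in any library of a group (19 called lower, 8 called higher) have poorly fixed differences.

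The size rule of log2 1 left 7 lower hypoxia targets, 2 of glycolysis, 9 immediate early genes, 2 heat shock genes, 1 each of insulin signalling and of WNT and NOTCH, 2 lower and 0 higher ATF4 genes, 4 mitochondrial mRNAs, 1 replication gene, and 0 each of ribosome biogenesis, mitochondrial ribosomal proteins and proteasome. The fit of 6 libraries gave 9 lower WNT and NOTCH genes, 2 higher ATF4 genes, 4 mitochondrial ribosomal proteins and 5 proteasome genes. With the replicate block 5 ATF4 genes, 6 mitochondrial ribosomal proteins and 6 proteasome genes were higher. No filter gave 7 lower ATF4 genes. The offsets gave 7 higher mitochondrial mRNAs, and 5 with the replicate block. Leaving out 1 library gave 8 to 12 lower WNT and NOTCH genes, 2 to 7 higher and 6 to 11 lower ATF4 genes, 4 to 17 mitochondrial ribosomal proteins, 3 to 14 proteasome genes and 11 to 17 replication genes. It gave 15 to 17 lower hypoxia targets, 16 to 22 immediate early genes and 18 to 25 higher ribosome biogenesis genes. ARID1A ranged from -0.068 to 0.35 when 1 library was left out, and no other named gene and no list or gene count reversed. Over all called genes, 4903 of 4914 had the same sign without shSTUB1 replicate 2 and 4906 with the GC and length offsets. Of 191 named genes that were called, 167 kept the call in all 18 alternatives other than the size rule. CCT6A, RPL6, H2AC20, CCT2, DNAJA3, RPL37 and SLC43A2 lost it in 10 or more. Most named genes were picked by small p or large difference in these libraries, which favours keeping a call. Of all 4914 calls, 60.7% were kept without V2084D replicate 1, 65.7% without shSTUB1 replicate 1 and 68.3% without V2084D replicate 2. These were the lowest shares outside the size rule. The causes were not tested.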
